A study of Mus musculus with 16 samples.

Results

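Aorta was compared with liver in tissue kept in culture with vehicle alone. The comparison takes 8 of the 16 libraries of the series, 4 of aorta with ethanol vehicle and 4 of liver with ethanol vehicle, chosen by the tissue and treatment that their names give, with every gene of the count table. The other 8 libraries, 4 of aorta with 10 nM estradiol (E2) and 4 of liver with 10 nM E2, serve here only to measure the same tissue difference again. All tissue came from wild-type C57BL/6 females whose ovaries had been removed when they were 6 to 7 weeks old, and it was taken 1 week after that surgery. Aortas, and fragments from the tip of the major lobe of the liver, were held in DMEM for 4 h before RNA was extracted, so both groups are explants after culture and not fresh tissue. The series text puts tissue of 4 mice into each replicate, while the library protocol describes TruSeq poly-A libraries from 600 ng of RNA of a single aorta or liver fragment beside Ovation libraries from 50 ng. How many animals stand behind a library is therefore not settled, and p-values here measure only the spread between these libraries. Column names end in o1, o2, n1 or n2, which no label explains, and whether o and n stand for the Ovation and TruSeq kits is not said in the sources at hand.

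The wall of the aorta is built from layers of smooth muscle cells set between sheets of elastin, with a lining of endothelium on the inside and an outer adventitia of fibroblasts, collagen, nerve endings and surrounding fat. Smooth muscle contraction rests on an isoform of actin and a myosin that other cells make little of, and their genes are switched on by serum response factor (SRF) bound to its partner myocardin. Most of the mass of liver is hepatocytes, which make the proteins of blood plasma, produce bile acids, dispose of nitrogen as urea, detoxify drugs and keep up blood glucose under a network of factors that includes HNF4A and the FOXA proteins. Sinusoidal endothelium, Kupffer cells (resident macrophages), stellate cells and bile duct cells make up most of the rest.

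Promoter sequences of some smooth muscle genes and some plasma protein genes are printed first. They were chosen because they hold short motifs known from promoters of muscle and of liver genes. Most members of these lists with a promoter entry held no such match, and the shares are given below. The sequences were taken from RefSeq for build GRCm38.p6, as the 250 bases before the annotated start. Both strands were searched for the CArG box (the SRF motif) and for GTTAAT, a motif known from promoters of liver genes. Capitals mark the matches, and each line runs 5′ to 3′ on the strand of its gene. The genes shown encode a myosin light chain (Myl9), an adhesion protein that anchors actin (Vcl), a protein of muscle anchoring sites (Ldb3), SRF itself (Srf), albumin (Alb), its relative afamin (Afm) and an inhibitor of proteases (Serpina1a).
Myl9, chr2:156775214-156775463, plus strand: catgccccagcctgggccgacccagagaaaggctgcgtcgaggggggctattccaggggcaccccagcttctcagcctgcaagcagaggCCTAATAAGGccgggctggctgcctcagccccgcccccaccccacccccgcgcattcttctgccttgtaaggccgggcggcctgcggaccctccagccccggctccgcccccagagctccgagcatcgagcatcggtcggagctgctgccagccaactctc
Vcl, chr14:20929148-20929397, plus strand: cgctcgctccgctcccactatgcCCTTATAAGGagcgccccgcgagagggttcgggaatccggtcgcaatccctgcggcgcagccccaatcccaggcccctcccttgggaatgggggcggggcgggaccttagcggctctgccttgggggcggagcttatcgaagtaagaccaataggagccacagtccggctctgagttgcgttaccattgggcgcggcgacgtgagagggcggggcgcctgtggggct
Ldb3, chr14:34588682-34588931, minus strand: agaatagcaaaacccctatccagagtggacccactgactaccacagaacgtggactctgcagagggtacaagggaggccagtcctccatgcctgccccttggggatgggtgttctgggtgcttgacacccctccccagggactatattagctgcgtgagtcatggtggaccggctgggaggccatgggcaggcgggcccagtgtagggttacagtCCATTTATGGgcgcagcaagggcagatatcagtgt
Srf, chr17:46556163-46556412, minus strand: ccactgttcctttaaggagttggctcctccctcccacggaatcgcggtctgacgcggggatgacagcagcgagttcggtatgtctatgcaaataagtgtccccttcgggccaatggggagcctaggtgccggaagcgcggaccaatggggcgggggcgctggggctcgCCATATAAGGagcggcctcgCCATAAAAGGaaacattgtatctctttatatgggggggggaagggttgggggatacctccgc
Alb, chr5:90460620-90460869, plus strand: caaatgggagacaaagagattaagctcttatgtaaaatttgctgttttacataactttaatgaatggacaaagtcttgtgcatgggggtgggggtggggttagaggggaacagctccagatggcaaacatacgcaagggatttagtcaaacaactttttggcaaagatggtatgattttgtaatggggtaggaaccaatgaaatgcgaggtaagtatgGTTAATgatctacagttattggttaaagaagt
Afm, chr5:90518699-90518948, plus strand: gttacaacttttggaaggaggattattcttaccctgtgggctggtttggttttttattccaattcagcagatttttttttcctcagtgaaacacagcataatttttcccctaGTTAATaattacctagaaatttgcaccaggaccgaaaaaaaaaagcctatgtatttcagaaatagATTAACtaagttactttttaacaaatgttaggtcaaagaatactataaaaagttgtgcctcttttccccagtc
Serpina1a, chr12:103863620-103863869, minus strand: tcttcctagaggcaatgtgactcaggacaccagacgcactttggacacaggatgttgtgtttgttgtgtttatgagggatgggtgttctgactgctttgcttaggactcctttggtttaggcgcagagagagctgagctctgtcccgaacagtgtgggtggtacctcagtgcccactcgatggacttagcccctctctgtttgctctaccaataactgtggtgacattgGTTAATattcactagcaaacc

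The values are read counts per gene. Their sum over genes lay between 6042073 and 19823982 in the vehicle aorta libraries and between 5210693 and 13078032 in the vehicle liver libraries. Rn45s, the ribosomal RNA precursor, took 34.2% of the counts in vehicle liver o1 and 25.7% in vehicle liver o2. With E2 it took 34.5% in liver o1 and 26.3% in liver o2, while no other library of either treatment gave it over 6.20%. Levels are given as CPM, counts scaled to a library of 1000000, with library sizes adjusted by edgeR's TMM method, and 4 values in a row always stand for o1, o2, n1 and n2. A log2 difference is aorta minus liver, with its standard error (SE) from edgeR's quasi-likelihood fit, so 1 means 2-fold higher in aorta and −1 means 2-fold lower. Higher, lower, rose and fell are said of genes with a Benjamini-Hochberg adjusted p under 0.05 in that test and a log2 difference of at least 1 in size. Genes known from other organs stood high in single aorta libraries. Tg, the thyroglobulin gene of the thyroid, had 1.23, 1.59, 649 and 1.63 CPM in aorta, and Glycam1, a gene of lymph node vessels, had 0, 17.4, 1.30 and 484 CPM in aorta. Liver libraries held at most 0.397 CPM of either. Both were picked after their values were seen and missed the filter on low counts, and the part of thyroid or lymph node RNA in the results was not tested.

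Of 12607 genes tested, 3032 (24.1%) were higher and 2954 (23.4%) were lower in aorta than in liver. At a log2 difference over 4 in size, 418 genes were higher and 765 lower. Over 8 in size 48 were higher and 321 lower, so large differences lay more often on the side of genes lower in aorta. A single count was 0.0407 to 0.176 CPM in an aorta library and 0.104 to 0.279 CPM in a liver library. Low levels could thus be followed less far down in liver, and the part of depth in these counts was not tested. Among the genes higher in aorta 47 had no count in any liver library, and among those lower 24 had no count in any aorta library. On library totals with no further scaling the split became 4661 higher (69.7% of calls, against 50.7% with TMM) and 2025 lower, with the median of all genes at 0.62 instead of 0.05. Without Rn45s it was 3413 higher and 2718 lower, with the median of all genes at 0.19. Log2 differences of a size near these shifts therefore depend on the scaling. Without a batch term in the fit the test called 1072 genes higher and 1375 lower. In each count below, the shares to set it against are the 24.1% and 23.4% of all tested genes. All aorta libraries lay above all liver libraries in 12.6% of tested genes and below them in 13.8%, the shares behind any count of groups that do not overlap. The gene lists used hold 1266 genes of the table, of which 1069 passed the filter on low counts. A gene high in a single tissue passes through that tissue, so counts are given of tested members and describe the lists without supporting anything.

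Markers of each tissue followed the labels in all 8 libraries. The smooth muscle actin gene Acta2 had 2548, 4970.1, 3455 and 4566 CPM in aorta, against 28.2, 29.6, 78.7 and 153 CPM in liver. The smooth muscle myosin gene Myh11 had 6245, 6355, 2152 and 1718 CPM in aorta, against 55, 54.5, 41.6 and 58.5 CPM in liver. Alb, the albumin gene, had 321, 58.2, 33.2 and 43.2 CPM in aorta, against 50252, 76324, 85757 and 69494 CPM in liver. Of the liver factors, Hnf4a, which encodes a master factor of hepatocytes, had 0, 0.149, 0 and 0 CPM in aorta, against 97.5, 122, 57.5 and 51.8 CPM in liver. For each of these genes the lowest library of the higher tissue lay above the highest library of the other. The log2 differences were 6.01 ± 0.54 for Acta2, 6.06 ± 0.48 for Myh11 and −10.04 ± 0.87 for Alb (SE, largest edgeR adjusted p 2.6e-06). Hnf4a had 3 counts over the aorta libraries and 2123 over the liver libraries, a ratio of liver over aorta of 1833 (95% exact counting interval 626 to 8897). Alb was highest in aorta o1, and so were the fibrinogen gene Fgb, at 29.4, 4.78, 1.75 and 3.25 CPM in aorta, and Apob, the gene of the large lipoprotein protein, at 32.8, 7.67, 0.976 and 1.14 CPM in aorta. The 38 plasma protein genes of the hepatocyte list summed to 1.44%, 0.777%, 0.557% and 0.571% of the liver level of the same suffix in aorta o1, o2, n1 and n2. The part of liver RNA in these levels was not tested. Without aorta o1 the log2 difference of Alb was −10.66, that of Fgb −10.67 (against −10.17 with it) and that of Apob −10.45 (against −9.81). Summed over their lists, smooth muscle genes held 22317 to 34954 CPM in aorta and 1456 to 3465 CPM in liver, endothelial genes 4237 to 6707 CPM in aorta and 1544 to 1959 CPM in liver, and Kupffer cell genes 57.1 to 466 CPM in aorta and 915 to 1043 CPM in liver. In bulk tissue, fewer cells of a type and less RNA per cell cannot be told apart, and this holds for every marker below.

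**Figure D1:**
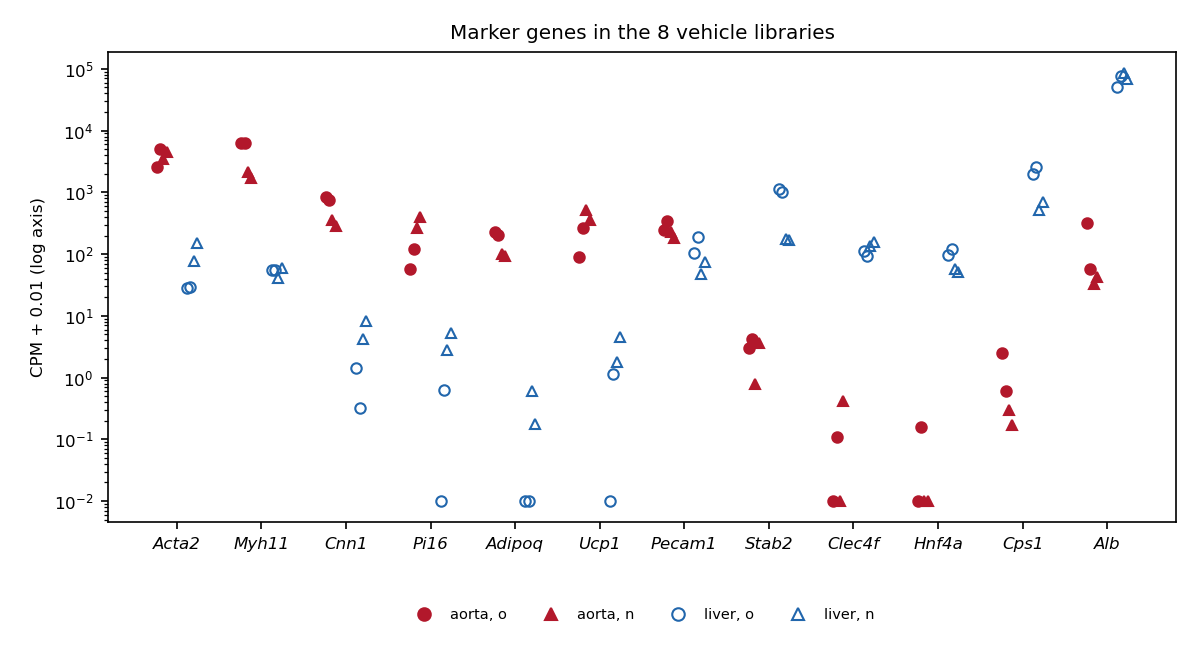
Level of 12 marker genes in each vehicle library, as CPM + 0.01 on a log axis; filled points are the 4 aorta libraries, drawn left of the 4 liver libraries (open points) for each gene, and circles are o and triangles n libraries. The aorta points of Acta2, Myh11, Cnn1, Pi16, Adipoq and Ucp1 lie above every liver point, those of Alb, Hnf4a, Cps1, Clec4f and Stab2 lie below, and those of Pecam1 overlap with liver.

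The contractile genes of smooth muscle were higher in aorta. Of the 17 listed genes of contractile filaments and their regulators, all of them tested, 17 rose (24.1% of all tested genes did), with a median log2 difference of 3.96 against 0.05 over all genes. Cnn1, which encodes calponin, a brake on myosin, had 851, 759, 354 and 282 CPM in aorta, against 1.40, 0.311, 4.16 and 8.12 CPM in liver, a log2 difference of 7.48 ± 0.88, edgeR adjusted p 2.38e-05. Tagln, the gene of transgelin, an actin-binding protein, had 314, 440.0, 2955 and 3344 CPM in aorta, against 15.1, 15.5, 138 and 183 CPM in liver, a difference of 4.45 ± 0.34. Aorta lay above liver in every library for both, but the n libraries of Tagln stood above the o libraries in both tissues. Lmod1, whose protein seeds actin filaments, showed the opposite order, with 4604, 4171, 465 and 383 CPM in aorta, against 50.5, 49.3, 11.7 and 11.8 CPM in liver. Its log2 difference was 5.83 ± 0.42. Actg2, the actin gene known from gut smooth muscle, differed by 4.78 ± 0.56 and the tropomyosin gene Tpm2 by 4.99 ± 0.42. Vcl of the same group had a difference of 2.59 ± 0.40 and overlapped between the tissues. The smallest difference of the group was that of Mylk, the gene of the kinase that starts contraction, with 583, 636, 507 and 247 CPM in aorta, against 327, 246, 112 and 107 CPM in liver. Its groups overlapped, and the log2 difference was 1.44 ± 0.33. The actin genes are near-identical in their coding parts, and how reads shared between them were counted is not stated, so their separate levels are uncertain.

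Among the adaptors that tie filaments to the membrane, 8 of 10 tested rose. Ldb3 had 15.9, 28.2, 28.5 and 17.6 CPM in aorta, against 0, 0.104, 0 and 0.338 CPM in liver, which is 1574 counts over the aorta libraries and 3 over the liver libraries, a ratio of 203 (95% exact counting interval 69.2 to 983) in favour of aorta. Synpo2, which encodes an actin-bundling protein, differed by 6.57 ± 0.51. Des, the gene of desmin, stood at 18.7, 8.02, 36.6 and 48.3 CPM in aorta, against 4.47, 4.56, 31.7 and 26 CPM in liver, with overlapping groups and a log2 difference of 0.94 ± 0.35 that did not pass. Desmin is also a known marker of hepatic stellate cells.

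Of the regulators, 6 of 10 rose and 1 fell. Myocd, the myocardin gene, had 76.7, 95, 97.5 and 83.8 CPM in aorta, against 0.279, 2.07, 0.595 and 0.507 CPM in liver. No liver library came near the aorta libraries, and the log2 difference was 6.69 ± 0.46. Srf, whose protein myocardin binds, had 47.4, 38.7, 70.4 and 61.9 CPM in aorta, against 47.8, 20.02, 38.9 and 26.6 CPM in liver, overlapping groups and a difference of 0.75 ± 0.30 that did not pass. Mkl1 and Mkl2, genes of myocardin-related partners of SRF, differed by 0.09 ± 0.32 and 0.69 ± 0.31 and did not pass. Of SRF and these 3 partners, the gene of myocardin alone passed the test, while on library totals Srf and Mkl2 passed too. Tbx18, which encodes a factor of mural cell lineages, had 785 counts over the aorta libraries and 1 over the liver libraries, a ratio of 303 (95% exact counting interval 54.2 to 11984). The gene that fell was Tbx20, a factor known from heart, at 1.41, 3.19, 1.22 and 1.06 CPM in aorta, against 22.6, 7.05, 0.595 and 6.09 CPM in liver, with overlapping groups and a difference of −1.98 ± 0.69, edgeR adjusted p 0.0304 (adjusted p 0.059 with the suffix as a block).

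Of the 37 smooth muscle genes, 29 had an entry in the promoter table, and 4 of these 29 (13.8%) held a CArG box in the 250 bases before the start, Myl9, Vcl, Ldb3 and Srf. It was held by 1.4% of all 27025 genes with an entry, and among the tested genes called higher in aorta, 33 of 2360, likewise 1.4%. The promoter of Srf has 2 matches, whose first bases lie 82 and 62 bases before the start. GTTAAT was found in none of the 29. Actg2, Myh11, Tagln and Myocd were among the genes with no entry. A match is a string of letters and does not show that a factor binds there.

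Most elastic fibre genes rose. Of 21 tested, 15 were higher and 2 lower in aorta (median log2 difference 2.0). Eln, the elastin gene, had 1924, 1004, 1059 and 1408 CPM in aorta, against 79.3, 23.8, 61.3 and 63.6 CPM in liver, with every aorta library above every liver library and a difference of 4.65 ± 0.36. Mfap5, the gene of a microfibril glycoprotein, had 143, 137, 54.5 and 85.6 CPM in aorta, against 0.279, 1.66, 0 and 0.169 CPM in liver and differed by 7.65 ± 0.57. Lox, which encodes lysyl oxidase, the enzyme that crosslinks elastin and collagen, had 67.2, 68, 124 and 28 CPM in aorta, against 0.838, 1.56, 0.793 and 1.52 CPM in liver (5.88 ± 0.55, edgeR adjusted p 3.44e-06), and its relative Loxl4 went the other way, at 1.59, 0.797, 3.54 and 1.38 CPM in aorta, against 1.68, 7.88, 4.56 and 16.7 CPM in liver (−2.02 ± 0.66, groups overlapping). The other gene that fell was Efemp1, a fibulin gene, at −1.27 ± 0.35. Fbn1, the fibrillin gene mutated in Marfan syndrome, differed by 3.53 ± 0.36 with overlapping groups, its aorta n libraries at 301 and 131 CPM and its liver o libraries at 145 and 123 CPM. Emilin1, an elastic fibre gene, did not pass (−0.08 ± 0.31).

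Collagen genes rose in 16 of 21 cases and fell in 0 (median 2.14). The main fibrillar collagens of the vessel wall are encoded by Col1a1 and Col3a1. Col1a1 had 3576, 4250.3, 1453 and 1091 CPM in aorta, against 206, 183, 194 and 160.2 CPM in liver. Col3a1 had 3591, 3331, 1230.3 and 519 CPM in aorta, against 329, 234, 348 and 306 CPM in liver. Both tissues held them in every library, every aorta library stood above every liver library, and the differences were 3.58 ± 0.41 and 2.53 ± 0.52. The largest difference was that of Col4a6, a basement membrane chain known from smooth muscle, with 38.1, 34.9, 122 and 45.4 CPM in aorta, against 0.279, 0, 2.97 and 7.78 CPM in liver (5.07 ± 0.75, edgeR adjusted p 0.000151). Col18a1, source of endostatin and made by hepatocytes, did not pass (−0.32 ± 0.30), and neither did Col5a3 (−0.61 ± 0.40) or Col14a1 (−0.31 ± 0.36).

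Proteoglycan and matricellular genes had 19 of 28 members higher and 2 lower. Some of the largest differences belonged to genes best known from cartilage. Comp, cartilage oligomeric matrix protein, had 10.8, 16.5, 54.8 and 39.3 CPM in aorta, against 0, 0, 0.198 and 0 CPM in liver, a ratio of 859 (95% exact counting interval 154 to 33924) from 2224 counts over the aorta libraries and 1 over the liver libraries. Acan, the gene of aggrecan, the large proteoglycan of cartilage, had 20.8, 18.9, 67.9 and 35.8 CPM in aorta, against 0, 0, 0 and 0.507 CPM in liver, a ratio of 335 (95% exact counting interval 115 to 1628). Cytl1, a cytokine-like gene also listed as an arterial endothelial marker, had 5.47, 7.08, 99.3 and 114 CPM in aorta, against 0, 0.104, 1.59 and 1.01 CPM in liver (6.35 ± 0.45, edgeR adjusted p 3.46e-07). No liver library held over 1.59 CPM of any of the 3, and every aorta library lay above every liver library. Of the 11 genes of the cartilage list 6 were tested, 4 were higher and 1, Chad (−2.72 ± 0.73), was lower. Its main factor Sox9 was at 0.21 ± 0.30 and did not pass, and the cartilage collagen gene Col2a1 was too low to test. Mgp, which encodes an inhibitor of calcification, had 487, 1011, 2195 and 3042 CPM in aorta, against 3.35, 13.6, 83.1 and 66.6 CPM in liver (5.83 ± 0.46). Spp1, the osteopontin gene, fell (−4.46 ± 0.46), and so did Vtn, vitronectin, a plasma protein of liver, at 21.2, 6.83, 5.33 and 17.4 CPM in aorta, against 2066, 3099, 4239.9 and 3782 CPM in liver (−8.12 ± 0.62). Dcn and Fn1, decorin and fibronectin, did not pass, at 0.31 ± 0.35 and 0.96 ± 0.39.

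Hox genes, which record position along the body axis, were low in both tissues and lay on the side of aorta. Of 39 in the table, 7 had no count in any vehicle library and 11 passed the filter on low counts. A gene can pass the filter through the tissue in which it is high alone, which favours genes that differ. The 7 called higher of these 11, with 0 lower, are therefore a description only. Hoxa7 had 4.94, 3.14, 2.89 and 4.39 CPM in aorta and no count in liver, which makes it at least 27.8-fold higher with a floor of 3 counts over the liver libraries. Hoxc10 likewise had 3.17, 1.74, 2.24 and 1.79 CPM in aorta and none in liver, at least 16.7-fold. Hoxa3 had 5.64, 7.92, 27.1 and 21.1 CPM in aorta, against 1.95, 0.415, 1.98 and 2.20 CPM in liver (3.23 ± 0.51, edgeR adjusted p 0.000234). Hoxa2 had 8.46, 14, 7.97 and 6.18 CPM in aorta, against 1.12, 3.42, 1.98 and 1.01 CPM in liver (2.31 ± 0.46). All 4 aorta libraries lay above liver for each of these. Hoxa4 (1.73 ± 0.57), Hoxb2 (1.63 ± 0.49) and Hoxb8 (4.02 ± 0.83) also rose, and Hoxa5 (0.92 ± 0.48), Hoxb3 (0.27 ± 0.45), Hoxb4 (0.58 ± 0.53) and Hoxc6 (0.96 ± 0.76) did not pass.

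Other factors of mesenchymal cells leaned to aorta. Of 26 tested, 15 were higher and 4 lower (median 1.56). Osr1 had 42.7, 61.9, 88.1 and 48 CPM in aorta, against 0, 0.104, 0 and 1.52 CPM in liver (7.24 ± 0.73). Foxc1 had 9.70, 13.6, 87.8 and 48.8 CPM in aorta, against 0, 0, 0.595 and 1.52 CPM in liver (6.42 ± 0.60), both genes of factors of embryonic mesenchyme. Tbx5, a factor of heart and limb development, had no count in liver and was at least 14.3-fold higher. Prrx1 (5.01 ± 0.45) rose too, and Ebf2, a factor of brown fat and mural cells, had a ratio of 162 (95% exact counting interval 28.9 to 6404). The 4 that fell were Tcf21, at 0.881, 1.10, 2.48 and 3.25 CPM in aorta, against 12.3, 29.1, 82.1 and 45.7 CPM in liver (−4.43 ± 0.39), Tbx3 (−2.13 ± 0.33), Nr2f2 (−1.43 ± 0.28) and Tbx2 (−1.03 ± 0.37, edgeR adjusted p 0.0358, and 0.0613 with the suffix as a block). Tcf21 is known from stellate cells of liver as well as from fibroblasts.

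Markers of the outer coat of the vessel were present in the aorta libraries. Of 19 fibroblast genes, 10 rose and 3 fell (median 1.06). Pi16, a marker of adventitial fibroblasts, had 56.8, 121, 260.2 and 398 CPM in aorta, against 0, 0.622, 2.78 and 5.24 CPM in liver (6.86 ± 0.50, edgeR adjusted p 4.19e-07). Pdgfra, the gene of a growth factor receptor of fibroblasts, had 76.9, 161, 87.5 and 42.8 CPM in aorta, against 32.4, 24.5, 14.5 and 9.98 CPM in liver (2.21 ± 0.37). Dpt, dermatopontin, differed by 2.73 ± 0.37. The 3 that fell were Tcf21, Dpp4 (−4.22 ± 0.37) and Igfbp4 (−2.91 ± 0.36). They are also known from liver cells, and the part of those cells in their differences was not tested.

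Fat genes, of the tissue that surrounds the vessel, stood high in aorta. Of 35 tested adipocyte genes 22 rose and 2 fell (median 2.83). Adipoq, the adiponectin gene, had 229, 203, 99.5 and 94.5 CPM in aorta, against 0, 0, 0.595 and 0.169 CPM in liver (9.64 ± 0.69, edgeR adjusted p 3.89e-07). Ucp1, the uncoupling protein of brown fat, had 90.1, 269, 523 and 352 CPM in aorta, against 0, 1.14, 1.78 and 4.57 CPM in liver (7.51 ± 0.52). Dio2, which makes active thyroid hormone in brown fat, had 16.2, 41.7, 79.6 and 51.4 CPM in aorta, against 0, 0.104, 0 and 0.846 CPM in liver (7.60 ± 0.64). All aorta libraries stood above all liver libraries for these 3. Summed over the 39 genes of the list, the level was 5199.5 to 5900.5 CPM in aorta and 826 to 1028 CPM in liver. Genes that other cells share with fat, such as Cfd and Slc2a4 below, moved with this list, and the part of fat in their differences was not tested. The genes that fell were Thrsp (−1.26 ± 0.28) and Pank1 (−2.97 ± 0.49). They act in lipid and coenzyme A synthesis in liver too, and the part of liver cells in their differences was not tested. The brown fat coactivator gene Ppargc1a (−0.03 ± 0.41) and the receptor gene Adrb3 (0.20 ± 0.64) did not pass.

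Some genes known from nerve, mast cells and striated muscle had counts in the aorta libraries, though not evenly among these libraries. Dbh, which makes noradrenaline, had 36.3, 10.3, 23.2 and 24.8 CPM in aorta, against 1.68, 0, 0 and 0.169 CPM in liver (6.30 ± 0.69, edgeR adjusted p 1.39e-05). Uchl1, a neuronal ubiquitin hydrolase gene, had 4.41, 4.88, 67.4 and 124 CPM in aorta, against 0, 0, 0.595 and 0.169 CPM in liver (8.02 ± 0.61). Th, the gene of the enzyme that starts catecholamine synthesis, had 566 counts over the aorta libraries and 0 over the liver libraries, at 2.64, 0.947, 13.3 and 16.6 CPM in aorta, and missed the filter on low counts. Of 11 tested genes of the nerve list 7 rose. The 2 that fell were Erbb3 (−6.12 ± 0.47), a growth factor receptor gene, and Nrn1 (−4.92 ± 0.36), a gene of a neuronal surface protein. Hepatocytes also make the receptor, and their part in its difference was not tested. Of 9 tested genes of the neutrophil and mast cell list 4 rose and 2 fell, and the summed level of its 14 genes overlapped, at 35.3 to 117 CPM in aorta and 25.7 to 179.6 CPM in liver. Those that fell were the neutrophil genes S100a9 (−1.94 ± 0.55) and Csf3r (−2.41 ± 0.55), both with overlapping groups. Those that rose encode mast cell proteases: Mcpt4 had 8.64, 7.03, 7.48 and 19.7 CPM in aorta, against 0, 0.311, 0 and 0.338 CPM in liver (5.65 ± 0.76), and Tpsb2 had 337 counts over the aorta libraries and 1 over the liver libraries, a ratio of 130.1 (95% exact counting interval 23.2 to 5153). Cpa3, carboxypeptidase of mast cells, had a ratio of 56.9 (95% exact counting interval 19.3 to 277), and Cma1, a chymase, differed by 3.39 ± 0.87. The mast cell growth factor receptor gene Kit did not pass (0.33 ± 0.50).

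Striated muscle genes were mostly too low to test, 26 of 38. Of the 12 tested, 7 rose and 0 fell. Only 2 of 20 skeletal genes were tested, and 1 of these rose. Ryr2, the calcium release channel of heart, had 92.2, 168, 51.8 and 24.4 CPM in aorta, against 0, 1.45, 0.198 and 0 CPM in liver (7.70 ± 0.61, edgeR adjusted p 8.27e-07). Myh6, the atrial myosin gene, had 104, 4.09, 0.529 and 0.406 CPM in aorta, 692 counts in all and nearly all of them in o1, against no count in liver. Acta1, skeletal actin, had 0.176, 0.399, 30.9 and 25.5 CPM in aorta, so it was seen in the n libraries and hardly in the o libraries. The list summed to 147 to 625 CPM in aorta and 36.9 to 78.5 CPM in liver.

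Lymphocyte genes varied widely among the aorta libraries. Of 14 tested 1 rose and 2 fell. The B cell gene Cd79a had 0.705, 8.12, 1.63 and 35 CPM in aorta, against 0.558, 0.104, 7.34 and 7.78 CPM in liver. The T cell gene Cd3e had 0.353, 3.79, 1.87 and 17.8 CPM in aorta, against 6.70, 4.98, 7.14 and 8.46 CPM in liver. Each was highest in aorta n2, and the 18 listed genes summed to 35.1 to 1121 CPM in aorta and 95.5 to 508 CPM in liver. Neither gene passed, at 1.99 ± 0.99, edgeR adjusted p 0.111 and −0.58 ± 0.78. The natural killer cell genes Nkg7 (−2.88 ± 0.66) and Gzmb (−3.10 ± 0.62) fell and Cd8a (2.61 ± 0.86) rose. The median of the list was −0.14, and its sign turned with the scaling and with the library left out.

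**Figure D2:**
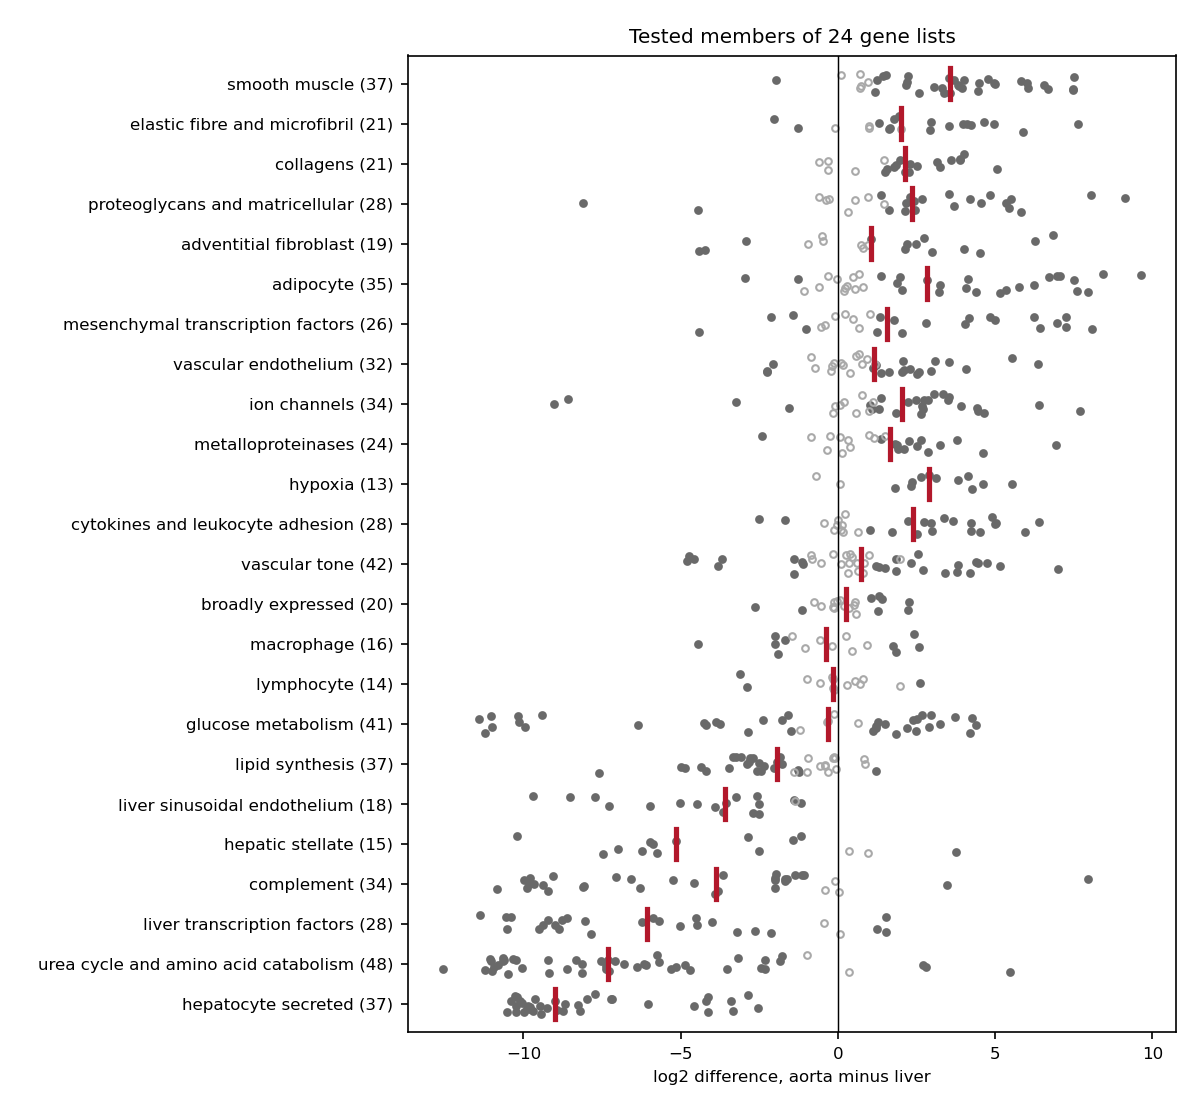
Log2 differences (aorta minus liver) of the tested members of 24 gene lists, 1 point a gene, with the number tested beside each name; filled points passed the test with a log2 difference over 1 in size, open points did not, and the bar marks the median. The lists of smooth muscle, matrix and fat lie mostly right of 0, those of sinusoidal and stellate cells and of hepatocyte functions lie mostly left, and glucose metabolism lies on both sides.

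Endothelium is present in both tissues, and its genes divided by vessel type. Of 16 pan-endothelial genes 4 rose, 3 fell and 9 did not pass. Pecam1 (CD31) had 242, 341, 231 and 179.7 CPM in aorta, against 106, 188, 47.8 and 74.2 CPM in liver, higher by 1.39 ± 0.30 with overlapping groups. Cdh5 (0.92 ± 0.42) and Vwf (0.59 ± 0.28), genes of the endothelial cadherin and of von Willebrand factor, did not pass. The 3 that fell were Kdr, the main VEGF receptor, at 46.7, 41.3, 26.2 and 13.1 CPM in aorta, against 246, 286, 55.5 and 90.5 CPM in liver (−2.24 ± 0.34, edgeR adjusted p 0.000191), Robo4 (−2.26 ± 0.37) and Eng (−2.05 ± 0.28). Of 16 arterial or large-vessel genes 12 rose and 0 fell. Gkn3, an arterial gene, had 13.2, 8.77, 6.63 and 19.3 CPM in aorta, against 0, 0.104, 0 and 0.846 CPM in liver (5.53 ± 0.81), Hey2, a target of Notch in arteries, 17.5, 32.2, 10.2 and 5.12 CPM in aorta, against 3.07, 1.14, 0.991 and 0.507 CPM in liver (3.54 ± 0.54), and Gja5, an arterial connexin, differed by 1.61 ± 0.49 with overlapping groups. Sox17 (0.17 ± 0.39) and Dll4 (−0.19 ± 0.45), also arterial, did not pass.

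Genes of the liver sinusoids were lower in aorta in 17 of 18 cases and higher in 0 (23.4% of all tested genes were lower; median −3.61). Clec4g, a lectin of sinusoidal cells, had 0.176, 0.548, 0.122 and 0.244 CPM in aorta, against 165, 234, 237 and 271 CPM in liver. Oit3 had 0.353, 0.299, 0.447 and 0.406 CPM in aorta, against 213, 224, 82.5 and 124 CPM in liver. Both were near 0 in every aorta library, and the differences were −9.71 ± 0.49 and −8.53 ± 0.46. Stab2, a scavenger receptor for hyaluronan, differed by −7.28 ± 0.62. Wnt2, which sinusoidal cells secrete to hepatocytes, did not pass (−1.37 ± 0.63, edgeR adjusted p 0.0852).

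Kupffer cell genes fell in 8 of 13 cases. Clec4f, which marks these cells, had 0, 0.0997, 0 and 0.406 CPM in aorta, against 113, 94.3, 133 and 159 CPM in liver (−9.94 ± 0.68, edgeR adjusted p 2.58e-07), and Cd5l, a macrophage protein that enters plasma, differed by −8.57 ± 0.81. Timd4 had 27.1, 24.8, 2.44 and 3.17 CPM in aorta, against 216, 206, 1.59 and 5.24 CPM in liver, with its groups split by library suffix more than by tissue (−1.83 ± 0.57). Macrophage genes not tied to liver went both ways, 4 higher and 5 lower of 16. Lgals3 (2.43 ± 0.31) and Pf4 (2.59 ± 0.48) rose, the complement genes C1qa (−2.01 ± 0.47), C1qb (−1.70 ± 0.32) and C1qc (−2.02 ± 0.36) and the receptor gene Csf1r (−1.91 ± 0.45) fell, and Cd68 (0.46 ± 0.31) did not pass.

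Stellate cell genes fell in 12 of 15 cases. Lrat, which stores vitamin A as retinyl ester, had no count in aorta and 13.4, 11.3, 19.6 and 9.98 CPM in liver, so it was at least 272-fold lower in aorta. Reln, reelin, had 10.9, 9.42, 1.83 and 3.49 CPM in aorta, against 462, 568, 235 and 178 CPM in liver (−5.97 ± 0.38, edgeR adjusted p 1.66e-07). The member that rose was Nes, nestin, at 594, 429.6, 401 and 475 CPM in aorta, against 49.1, 29.5, 39.7 and 23.5 CPM in liver (3.76 ± 0.32). Of 13 bile duct genes 10 fell, among them Krt19 (−2.99 ± 0.37), Krt7 (−3.31 ± 0.45) and Epcam (−3.97 ± 0.45). Aorta held 12 and 12.5 CPM of Krt19 in its n libraries. Of 8 mesothelial genes 6 fell, Msln among them at 0.176, 1.30, 15.1 and 10.6 CPM in aorta, against 3.63, 1.45, 51.2 and 56.5 CPM in liver (−1.85 ± 0.49, groups overlapping).

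Plasma protein genes had the lowest median of the 47 lists. All 37 tested were lower in aorta (median log2 difference −8.99). Trf, which encodes the iron carrier transferrin, had 43.4, 55.7, 118 and 123 CPM in aorta, against 4989.7, 7159.8, 19297 and 25098 CPM in liver (−7.23 ± 0.45, edgeR adjusted p 1.25e-07). Ttr, transthyretin, had 15.2, 7.13, 4.80 and 6.42 CPM in aorta, against 3911, 9049, 10800.4 and 11578 CPM in liver (−10.12 ± 0.70). Afm had 0.881, 0.498, 0.285 and 0.569 CPM in aorta, against 346, 329, 834 and 669 CPM in liver (−9.97 ± 0.55). Every aorta library lay far below every liver library for these. The smallest differences of the list belonged to Amy1 (−2.53 ± 0.42), Lcn2 (−2.85 ± 0.74), Itih4 (−3.34 ± 0.31) and Sepp1 (−3.42 ± 0.41), genes of an amylase, an iron-binding acute phase protein, a hyaluronan-associated inhibitor and a selenium carrier. Serpina1a (−10.23 ± 0.48) and Serpina1b (−9.26 ± 0.57) are near-identical copies, so the level of each is uncertain. Of 29 members with a promoter entry, 8 (27.6%) held GTTAAT on either strand, Alb, Afm and Serpina1a among them. It was held by 6.52% of all 27025 genes and 4.0% of the genes tested. Of the 2344 genes lower in aorta that had an entry, 6.44% held it. The 8 include Alb, Afm, Gc and Afp, all of the albumin family on chromosome 5, and both Serpina1a and Serpina1b. They are thus related genes in part and not 8 independent promoters.

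The factors of the hepatocyte network fell in 23 of 28 cases (median −6.06). Foxa1, a factor that opens chromatin, had 3.63, 2.80, 9.91 and 9.64 CPM in liver and no count in aorta, at least 127-fold lower, and Onecut2 likewise at least 755-fold lower. Nr1h4, the bile acid receptor FXR, differed by −9.51 ± 0.75, edgeR adjusted p 8.45e-07, and its target Nr0b2, with 2 counts over the aorta libraries and 1313 over the liver libraries, by a ratio of liver over aorta of 1701 (95% exact counting interval 469.9 to 14058). Cebpa, which fat cells also use, had 0.176, 0.149, 26.9 and 26.3 CPM in aorta, against 8.94, 3.01, 189 and 135 CPM in liver, a smaller difference of −3.20 ± 0.43 with overlapping groups. Those that rose were Zhx2 (1.54 ± 0.31), Gata6 (1.52 ± 0.43) and Foxo1 (1.24 ± 0.31). Cebpb (−0.45 ± 0.59) and Nfia (0.06 ± 0.32) did not pass.

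Most blood clotting genes were lower in aorta. Of 31 tested 21 fell and 7 rose, the share that rose lying near that of all tested genes (24.1%). Of 17 procoagulant genes 14 fell and 2 rose, and of 14 anticoagulant and fibrinolytic genes 7 fell and 5 rose. Prothrombin (F2) had 5.29, 0.449, 1.30 and 1.87 CPM in aorta, against 1036, 1053, 2268 and 2072 CPM in liver (−9.91 ± 0.69, edgeR adjusted p 2.92e-07), and antithrombin (Serpinc1) and plasminogen (Plg) differed by −9.50 ± 0.76 and −9.92 ± 0.64. The genes that rose encode proteins of cell surfaces or of local control. F3, tissue factor, which starts clotting, had 40.02, 50.7, 111 and 46.3 CPM in aorta, against 12.6, 18.3, 11.5 and 8.12 CPM in liver (2.29 ± 0.42). Thbd, thrombomodulin, which turns thrombin into an anticoagulant, had 122, 89.1, 779 and 234 CPM in aorta, against 7.82, 6.12, 14.7 and 20.5 CPM in liver (4.39 ± 0.45). Procr, the receptor of protein C, had 30.3, 39.2, 328 and 373 CPM in aorta, against 8.10, 11.5, 11.9 and 8.79 CPM in liver (3.48 ± 0.63). Plat (4.21 ± 0.43) and Plau (2.96 ± 0.41), the plasminogen activators, rose. In each of these aorta stood above liver in all libraries. Factor XIII was split: F13a1, the enzyme subunit, had 5.99, 16.4, 21.2 and 3.90 CPM in aorta, against 0, 0, 0 and 0.338 CPM in liver, a ratio of 179.9 (95% exact counting interval 49.7 to 1488), and F13b, the carrier subunit, 0.881, 0.199, 0 and 0 CPM in aorta, against 216, 256, 129 and 109.9 CPM in liver (−10.07 ± 0.69). F8, the gene of factor VIII, fell (−5.07 ± 0.45), while Vwf, its carrier in blood, did not pass.

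Complement genes fell in 29 of 34 cases, with 2 higher. C3, the hub of the cascade, had 1279, 1589, 712 and 655 CPM in aorta, against 18312, 19099, 11665 and 9339 CPM in liver, so aorta held a measurable level, with a difference of −3.83 ± 0.37. C8b differed by −10.84 ± 0.64 and C9 by −9.07 ± 0.67, genes of the membrane attack complex. C7, of the same complex, was higher in aorta, at 106, 218, 63.5 and 36.7 CPM in aorta, against 5.59, 9.34, 12.1 and 4.74 CPM in liver (3.48 ± 0.48, edgeR adjusted p 8.51e-05). The other gene that rose was Cfd, factor D or adipsin, known from fat, at 270.3, 372, 1086 and 782 CPM in aorta, against 0, 1.14, 2.38 and 8.79 CPM in liver (7.96 ± 0.63). Cd55, a regulator that protects cells, did not pass (−0.39 ± 0.30).

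Of 15 apolipoprotein genes 14 fell and 1 rose. Apoa1, of high density lipoprotein, had 22.2, 3.04, 7.16 and 10.6 CPM in aorta, against 5495, 6628, 13325 and 11066 CPM in liver (−10.02 ± 0.70, edgeR adjusted p 3.04e-07). Apoe had 171, 225, 657 and 956 CPM in aorta, against 4402, 6657, 34307 and 33837 CPM in liver, a smaller difference of −5.10 ± 0.42. The gene that rose was Apod, at 53.4, 55.2, 17.4 and 31.3 CPM in aorta, against 0, 0, 0.198 and 0.169 CPM in liver, a ratio of 429 (95% exact counting interval 119 to 3544). Among the genes of assembly, lipases and receptors, Lpl, lipoprotein lipase of fat and muscle, (2.83 ± 0.46) and Vldlr (3.34 ± 0.40) rose, and Lipc, hepatic lipase, (−9.70 ± 0.66) fell.

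Bile acid synthesis was on the side of liver for all 14 genes tested. Cyp7a1, the rate-limiting enzyme, had 0.176, 0, 0 and 0 CPM in aorta, against 185, 306, 41.8 and 14.9 CPM in liver, a ratio of liver over aorta of 10142 (95% exact counting interval 1819 to 400686). Its liver level was higher in o than in n libraries. Of 11 transporters 9 fell, among them Abcb11, the bile salt export pump, at 1.59, 0.149, 0.122 and 0.0813 CPM in aorta, against 727, 810.0, 297 and 312 CPM in liver (−10.76 ± 0.63, edgeR adjusted p 8.43e-08). Atp8b1, a lipid flippase, rose (1.38 ± 0.47, groups overlapping), and Slc51b did not pass (0.61 ± 0.78). The smallest of the falls was that of Abcc4 (−1.27 ± 0.41).

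Drug metabolism genes fell in 43 of 49 cases. Cyp3a11 had 3.88, 0.399, 0.0813 and 0.0813 CPM in aorta, against 753, 1087, 415 and 442 CPM in liver (−10.40 ± 0.81). Cyp2e1 had 199, 94.2, 49.2 and 39.2 CPM in aorta, against 3753, 3602, 5084 and 4381 CPM in liver (−5.76 ± 0.54). Cyp2e1 stayed measurable in every aorta library. Brown and white fat are known to transcribe it, and the part of fat or of liver RNA in its level was not tested. Members of P450 families are near-identical copies in part, and how shared reads were counted is not stated. The 3 genes that rose were Cyp1b1, at 18.2, 17.7, 14 and 7.56 CPM in aorta, against 0.558, 4.88, 0.397 and 2.37 CPM in liver (2.95 ± 0.60), known from vascular cells, Por, the electron donor of P450 enzymes (1.38 ± 0.28), and Fmo2 (1.31 ± 0.50, edgeR adjusted p 0.045, and 0.1 with the suffix as a block). Cyp1a1 did not pass (−0.56 ± 0.78).

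Nitrogen and amino acid disposal fell in 43 of 48 cases. Cps1, which makes the starting compound of the urea cycle, had 2.47, 0.598, 0.285 and 0.163 CPM in aorta, against 2012, 2603, 522 and 705 CPM in liver (−11.04 ± 0.57, edgeR adjusted p 4.68e-08). Arg1, which releases urea, had 3.35, 2.54, 3.05 and 5.93 CPM in aorta, against 345, 390.2, 851 and 1012 CPM in liver (−7.36 ± 0.42). The other arginase gene, Arg2, did not pass (0.37 ± 0.65). Tat, of tyrosine breakdown, differed by −11.23 ± 0.65. Bcat1, of branched-chain amino acid breakdown, (5.48 ± 0.85) and Mat2a (2.70 ± 0.45) were among the genes that rose.

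In glucose metabolism genes of like function lay on opposite sides. The pairs below were put together after the values were seen, so they are a description. Pklr, liver pyruvate kinase, had 0.176, 0.0498, 0.0407 and 0.0813 CPM in aorta, against 388, 266, 88.6 and 72.2 CPM in liver (−11.02 ± 0.48, edgeR adjusted p 4.68e-08). Pkm, the form of muscle and most other cells, had 40.7, 41.6, 433 and 455 CPM in aorta, against 6.42, 12, 28.7 and 41.4 CPM in liver (2.97 ± 0.39, groups overlapping). Gys2 (−4.20 ± 0.36) and Gys1 (2.91 ± 0.35), the glycogen synthases, and Pygl (−2.85 ± 0.29) and Pygb (1.11 ± 0.32), the glycogen phosphorylases, followed the same order. So did the glucose transporters Slc2a2 (−9.42 ± 0.62) and Slc2a1, at 941, 1197, 875 and 569 CPM in aorta, against 63.9, 91.7, 22.4 and 31.6 CPM in liver (4.26 ± 0.37), with Slc2a3 (2.52 ± 0.62) and the insulin-responsive Slc2a4 (4.39 ± 0.53). Pck1, which drives glucose production, fell (−4.25 ± 0.36) and its mitochondrial form Pck2 rose (2.19 ± 0.38, groups overlapping). Hk1, a hexokinase, had 247, 247, 475 and 377 CPM in aorta, against 36.9, 41.8, 25.2 and 34 CPM in liver (3.25 ± 0.35). Hk2, another, had 581, 670.5, 396 and 223 CPM in aorta, against 54.7, 79, 7.53 and 8.96 CPM in liver (4.20 ± 0.47). Both rose with Aldoa, an aldolase (2.67 ± 0.30). Of 25 genes of glycolysis and glucose transport 14 rose and 7 fell, and of 16 of gluconeogenesis and glycogen 4 rose and 11 fell.

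Outside glucose metabolism, further sets were likewise put together after the values were seen, so they too are a description. Not every partner gene showed this order: Arg1 and Cpt1a fell, while their partners Arg2 and Cpt1b did not pass. Mat1a, which makes S-adenosylmethionine in liver, fell (−10.03 ± 0.52, edgeR adjusted p 4.68e-08) and Mat2a rose. The connexins of hepatocytes, Gjb1 (−9.03 ± 0.79) and Gjb2 (−8.59 ± 0.90), fell, and those of the vessel wall, Gja1 (3.07 ± 0.53), Gja4 (2.11 ± 0.34) and Gjc1 (3.34 ± 0.33), rose. Inhba, an activin subunit gene, had 1644, 1333, 279 and 188 CPM in aorta, against 135, 126, 13.1 and 8.12 CPM in liver (3.97 ± 0.37), and Inhbc, another, had 1 count over the aorta libraries and 679 over the liver libraries, a ratio of liver over aorta of 1759 (95% exact counting interval 315 to 69577).

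**Figure D3:**
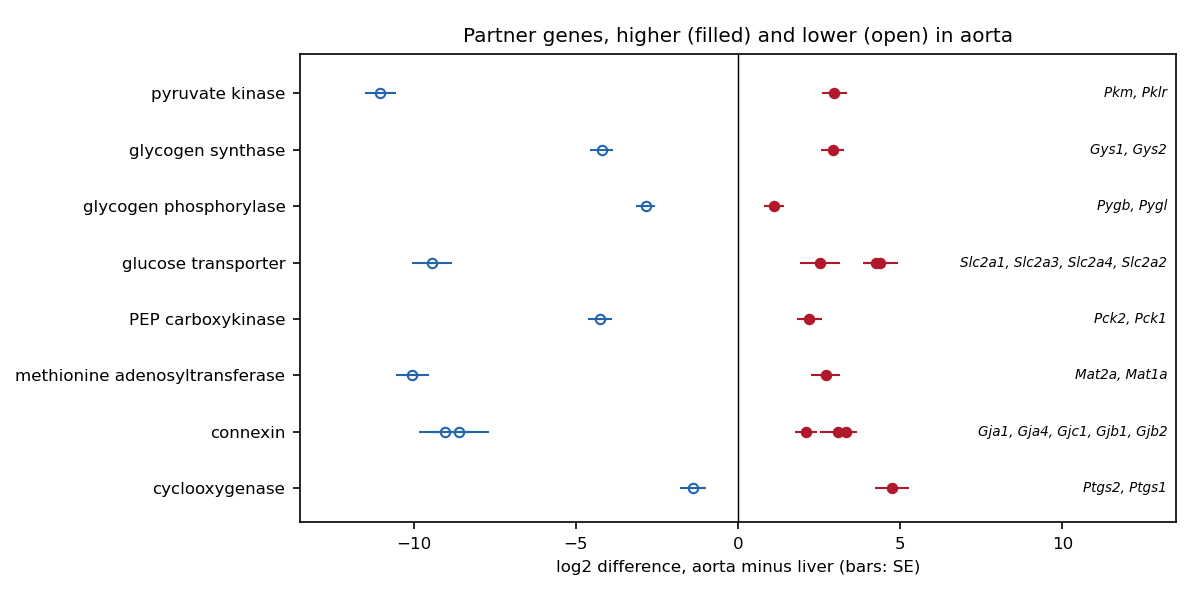
Log2 differences (aorta minus liver, with SE bars) of 8 sets of partner genes, named by their role on the left; filled points are genes higher in aorta and open points genes lower in aorta. The sets were put together after the values were seen, and each has members on both sides of 0. Examples are Pklr at −11.02 and Pkm at 2.97.

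Fat oxidation and synthesis leaned to liver. Of 27 oxidation and ketone genes 17 fell and 1, Oxct1, rose. Oxct1, which tissues need to use ketone bodies, had 602, 1391, 116 and 35.7 CPM in aorta, against 33.8, 94.4, 2.97 and 8.63 CPM in liver (3.86 ± 0.46). Its liver o2 library lay above its aorta n2 library, so the groups overlapped. Fabp1, liver fatty acid binding protein, differed by −10.33 ± 0.72. Cpt1a, which admits fatty acids to mitochondria, had 40.2, 36.2, 23 and 6.83 CPM in aorta, against 234, 224, 25.6 and 30.6 CPM in liver, with overlapping groups (−1.76 ± 0.46), and its muscle form Cpt1b did not pass (0.55 ± 0.37). Cholesterol synthesis genes fell in 13 of 15 cases, among them Dhcr7, of the last step (−4.99 ± 0.37). Of 22 fatty acid and triglyceride genes 10 fell and 1 rose, Scd2 (1.22 ± 0.47, edgeR adjusted p 0.047, and 0.0748 with the suffix as a block), while Fasn (−0.16 ± 0.39), Acly (−0.42 ± 0.43) and Scd1 (−1.0 ± 0.55) did not pass.

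Of 22 tested genes of iron, copper and haem handling 13 fell and 6 rose, the share that rose lying near that of all tested genes (24.1%). Hamp, hepcidin, the hormone of iron balance, had 1.59, 0.249, 1.10 and 3.17 CPM in aorta, against 135, 304, 2445 and 2545 CPM in liver (−9.48 ± 0.78, edgeR adjusted p 1.25e-06), and Tfr2, which senses iron in liver, differed by −8.83 ± 0.45. Hpx, hemopexin, which binds free haem in plasma (−10.20 ± 0.51), and Ftl1, the light chain of ferritin (−2.55 ± 0.38, groups overlapping), fell as well. Hmox1, haem oxygenase, which breaks down haem, had 180.3, 285, 1512 and 1920.2 CPM in aorta, against 29, 64.1, 49.2 and 68 CPM in liver (3.64 ± 0.53). The metallothionein gene Mt2 had 161, 145, 939 and 2078 CPM in aorta, against 19.3, 57.8, 97.9 and 91.5 CPM in liver (3.13 ± 0.50), and Mt1, its neighbour in function, rose with overlapping groups (2.15 ± 0.49). Tfrc, which takes up transferrin, rose as well (2.27 ± 0.56, groups overlapping).

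Of 27 genes of hormone axes 18 fell and 6 rose. Igf1, the growth factor that liver releases to blood, had 236, 283, 16 and 13.9 CPM in aorta, against 1927, 2125, 713 and 578 CPM in liver (−4.19 ± 0.53, edgeR adjusted p 4.46e-05). Igfbp1, which binds it, had 3 counts over the aorta libraries and 3550 over the liver libraries, a ratio of liver over aorta of 3065 (95% exact counting interval 1048 to 14872). Igf2 (2.27 ± 0.56), the receptor gene Igf1r (2.64 ± 0.31) and the binding protein genes Igfbp5 (2.82 ± 0.36), Igfbp6 (1.06 ± 0.31) and Igfbp7 (1.29 ± 0.37) rose, with Thra (1.63 ± 0.27). Esr1, the estrogen receptor gene, had 9.70, 11.8, 5.0 and 3.98 CPM in aorta, against 22.6, 35.5, 8.72 and 8.12 CPM in liver, a difference of −1.16 ± 0.34 with overlapping groups. Of 13 sex steroid genes 8 fell. Hsd17b2, which inactivates estradiol, had 0, 0.149, 0.0813 and 0.163 CPM in aorta, against 106, 197, 463 and 317 CPM in liver (−11.21 ± 0.51). Pgr, the progesterone receptor gene, rose (2.85 ± 0.96) with no count in 3 of the 4 liver libraries.

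Genes that set vessel tone went both ways, 17 higher and 9 lower of 42. Genes of the renin-angiotensin system lay on both sides. Agt, the hormone precursor, had 0.176, 0.199, 1.30 and 2.11 CPM in aorta, against 103, 127, 1206 and 1139 CPM in liver (−9.37 ± 0.42, edgeR adjusted p 4.68e-08). Ace, which forms angiotensin II, had 117, 171, 252 and 191 CPM in aorta, against 2.51, 1.87, 8.92 and 11.2 CPM in liver (5.17 ± 0.43). The receptor gene Agtr1a had 2.12, 2.24, 2.11 and 1.46 CPM in aorta, against 48.6, 53.5, 52.7 and 58.2 CPM in liver (−4.74 ± 0.34), while Agtr1b had 299 counts over the aorta libraries and 0 over the liver libraries and missed the filter. Agt and Agtr1a were thus on the side of liver and Ace on that of aorta, while Agtr1b, which was not tested, had counts in aorta only. Of the adrenergic receptors, Adra1d had 4.76, 3.09, 29.6 and 20.8 CPM in aorta, against 0.279, 0, 0 and 0.169 CPM in liver, a ratio of 207 (95% exact counting interval 57.2 to 1712), and Adra1b 5.47, 1.40, 8.21 and 10.2 CPM in aorta, against 83.5, 72.9, 238 and 273 CPM in liver (−4.80 ± 0.37). Ednra, the endothelin receptor gene of smooth muscle, had 17.5, 22.3, 3.54 and 0.894 CPM in aorta, against 29.3, 34.6, 7.53 and 6.09 CPM in liver, a difference of −1.11 ± 0.43 with overlapping groups.

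Prostanoid genes rose at several steps. Ptgs2 (COX-2) had 1817, 1817, 749.6 and 246 CPM in aorta, against 102, 124, 6.74 and 14.7 CPM in liver (4.75 ± 0.52, edgeR adjusted p 1.43e-05). Ptgis, which makes prostacyclin, had 172, 243, 619.5 and 934 CPM in aorta, against 10.1, 8.92, 43.2 and 27.9 CPM in liver (4.45 ± 0.34). The prostacyclin receptor gene Ptgir (2.55 ± 0.43) and Ptges (3.82 ± 0.57) rose too, and Ptgs1 (COX-1) fell (−1.40 ± 0.40). Nos3, endothelial nitric oxide synthase, rose by 1.20 ± 0.34. The cyclic GMP genes Prkg1 (1.86 ± 0.38) and Pde5a (3.4 ± 0.49) also rose, and Gucy1a3 did not pass (0.37 ± 0.40).

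Ion channel genes of the vessel wall rose in 22 of 34 cases and fell in 4. Kcnma1, the pore gene of the large-conductance potassium channel that relaxes smooth muscle, had 118, 90.3, 27.5 and 17.2 CPM in aorta, against 3.63, 4.98, 0.793 and 0.846 CPM in liver. Kcnmb1, its accessory subunit, had 46.9, 68.1, 38.8 and 27 CPM in aorta, against 0, 0.519, 0.793 and 0.676 CPM in liver. Both stood above liver in every aorta library (4.63 ± 0.37, edgeR adjusted p 9.11e-07 and 6.39 ± 0.55). Cacna1c, the L-type calcium channel gene, had 91.7, 99.4, 49.9 and 21.9 CPM in aorta, against 8.38, 3.94, 0.595 and 1.52 CPM in liver (4.47 ± 0.46). The 4 that fell were the connexins Gjb1 and Gjb2, Kcnq1 (−3.25 ± 0.52) and Itpr2 (−1.55 ± 0.39).

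Secreted antagonists of Wnt and BMP signals rose in 9 of 14 cases and fell in 0. Sfrp4, which binds Wnt proteins, had 908, 964, 129.5 and 50.8 CPM in aorta, against 0.558, 1.45, 0 and 0.338 CPM in liver (9.57 ± 0.61, edgeR adjusted p 1.51e-07), with its o libraries above its n libraries in aorta. Wif1 had 3.0, 3.29, 7.73 and 3.41 CPM in aorta and no count in liver, at least 40.5-fold higher, and Sfrp2 (6.25 ± 0.81) and Fstl3 (5.13 ± 0.51) rose as well. Sost, sclerostin, had 1.06, 2.04, 105 and 48.8 CPM in aorta, seen in the n libraries, and missed the filter. Of 30 ligands and receptors 14 rose and 5 fell. Bmpr1b, a BMP receptor gene, had a ratio of 241 (95% exact counting interval 66.5 to 1991), and Tgfb2 differed by 4.24 ± 0.45. Bmp5 fell (−6.56 ± 0.46), with Bmp2 (−1.17 ± 0.30), Wnt4 (−3.65 ± 0.59), Rspo3 (−2.70 ± 0.31) and Inhbc.

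Notch, ephrin, semaphorin and Slit genes rose in 14 of 30 cases and fell in 7. Slit3, a guidance ligand, had 276, 470.0, 236 and 163 CPM in aorta, against 4.47, 6.22, 3.57 and 4.23 CPM in liver (5.89 ± 0.35, edgeR adjusted p 9.03e-08), among the smallest p-values of genes higher in aorta, and Slit2 differed by 4.26 ± 0.52. Robo1, the gene of a Slit receptor, (−1.67 ± 0.45) and Robo4 fell. Jag1, the Notch ligand of smooth muscle, rose by 1.49 ± 0.34. The receptor genes Notch1 (−0.13 ± 0.35) and Notch3 (0.48 ± 0.30) did not pass, and Efna1 (−2.71 ± 0.34) and Hes1 (−1.10 ± 0.35) fell.

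All 4 tested inhibitors of matrix proteases rose, Timp1 the most at 31, 34.7, 251 and 484 CPM in aorta, against 2.23, 2.70, 6.34 and 12.2 CPM in liver (4.61 ± 0.46, edgeR adjusted p 6.51e-06). Of 20 proteases 9 rose and 1, Mmp15 (−2.43 ± 0.43), fell. Mmp3, stromelysin, had 45.8, 62.2, 325 and 387 CPM in aorta, against 0, 1.76, 2.18 and 1.35 CPM in liver (6.95 ± 0.57). Mmp14 (0.12 ± 0.26) and Mmp9 (−0.84 ± 0.69) did not pass.

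Cytokine and adhesion genes rose in 17 of 28 cases and fell in 2. Il6 had 193, 130.5, 1098 and 897 CPM in aorta, against 8.10, 10.5, 1.78 and 6.60 CPM in liver (5.96 ± 0.83, edgeR adjusted p 9.14e-05). Ccl2, which draws monocytes, had 460.5, 194, 629.7 and 697 CPM in aorta, against 96.3, 51, 26 and 25.2 CPM in liver (3.38 ± 0.53). Csf2, which activates myeloid cells, had 113, 64.1, 31.1 and 43.9 CPM in aorta, against 0.279, 4.36, 0.198 and 2.54 CPM in liver (4.98 ± 0.67), and Ccl11, eotaxin, differed by 6.39 ± 0.60. All aorta libraries were above all liver libraries for these. Csf3 had 1.41, 0.648, 48 and 121 CPM in aorta and missed the filter, its counts lying in the n libraries. Cxcl12 (−1.68 ± 0.37) and Il1a (−2.51 ± 0.61) fell with overlapping groups, and Tnf (0.01 ± 0.67) and Il1b (−0.13 ± 0.34) did not pass. Tissue was measured only after 4 h of culture, so what culture added in each tissue cannot be told apart from the tissue itself.

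Immediate early genes, which respond to handling, rose in 11 of 23 cases and fell in 0. Fosl1 had 577, 453, 386 and 377 CPM in aorta, against 16.2, 58.9, 12.3 and 13.4 CPM in liver (4.48 ± 0.43, edgeR adjusted p 4.2e-06), Egr3 differed by 4.34 ± 0.60 and Nr4a2 by 3.70 ± 0.42. The early responders Fos, at 20.4, 49.2, 316 and 215 CPM in aorta, against 52.2, 52.5, 264 and 272 CPM in liver (−0.35 ± 0.32), Jun (−0.96 ± 0.29) and Egr1 (0.71 ± 0.31) did not pass. Heat shock genes Hspa1a (−1.47 ± 0.33) and Hspa1b (−1.53 ± 0.40) fell, and they are near-identical copies whose separate levels are uncertain. Ddit3, a gene of endoplasmic reticulum stress, rose (2.49 ± 0.33).

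Targets of the hypoxia factor rose in 11 of 13 cases and fell in 0 (median 2.91). Car9, a carbonic anhydrase, had 22.2, 17.6, 61.8 and 84.5 CPM in aorta, against 0.558, 0.207, 2.58 and 1.01 CPM in liver (5.53 ± 0.45, edgeR adjusted p 1.06e-06). P4ha2, a collagen prolyl hydroxylase, had 190.0, 169, 269 and 253 CPM in aorta, against 10.3, 2.59, 15.9 and 12.5 CPM in liver (4.62 ± 0.40). Egln3, an oxygen sensor of the pathway, had 64.7, 94.1, 178 and 95.1 CPM in aorta, against 5.31, 9.44, 7.93 and 7.10 CPM in liver (3.82 ± 0.35), and Ankrd37 differed by 4.15 ± 0.51. The aorta and liver libraries did not overlap for any of the 4 (aorta was wholly above liver in 12.6% of all tested genes). Vegfa, the best known target, had 159.7, 176, 389 and 197 CPM in aorta, against 339.6, 227, 172 and 155 CPM in liver (0.06 ± 0.39), and it and Pdk1 (−0.71 ± 0.43) did not pass. Slc2a1 of this list is counted with glucose transport too, and Adm with vascular tone.

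Cell cycle genes mostly did not pass, with 3 higher and 3 lower of 20. Mki67 had 128, 147, 6.99 and 27.3 CPM in aorta, against 440.1, 309, 21.8 and 18.6 CPM in liver, its o libraries above its n libraries in both tissues (−0.85 ± 0.43). Cdkn1a (p21), which stops the cycle, rose (3.55 ± 0.40, edgeR adjusted p 1.8e-05) with Ccnd2 (1.74 ± 0.30) and Pcna (1.60 ± 0.29), and Ccnd1 (−2.19 ± 0.40), Plk1 (−1.87 ± 0.67) and Aurka (−2.45 ± 0.50) fell. Of 19 clock genes 8 rose, Bhlhe41 (4.34 ± 0.54), Ciart (3.42 ± 0.76) and Nr1d1, at 944, 681, 444 and 641 CPM in aorta, against 433, 117, 89.2 and 98.4 CPM in liver (2.19 ± 0.35), the most. The time of day of harvest is not given in the sources used here.

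Of 20 genes often used as references, 6 rose, 2 fell and 12 did not pass. Actb rose by 1.07 ± 0.28, Hprt by 1.32 ± 0.28 and Ywhaz by 2.21 ± 0.52, and B2m (−1.13 ± 0.36, edgeR adjusted p 0.0195, but −0.57 and not past the test on library totals) was among those that fell. Eef1a1 (0.08 ± 0.28), Rpl13a (−0.12 ± 0.35) and Gapdh, at 8.64, 7.03, 1.83 and 4.31 CPM in aorta, against 4.75, 2.28, 9.12 and 7.44 CPM in liver (−0.13 ± 0.63), did not pass. Gapdh has many near-identical copies in the mouse genome, and its low level here is uncertain for that reason. Only 4 of 19 replication-dependent histone genes passed the filter, and Hist1h1c (−1.04 ± 0.35) and Hist1h2bc (−1.61 ± 0.56) fell.

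Among the 1198 genes that were called higher in aorta, had no overlap between the tissues and averaged at least 10 CPM, the 12 of smallest p were Map1b, Slit3, Nupr1, Ptx3, Susd5, Serpine2, Lmcd1, Sfrp4, AI414108, Myom1, Sh3bgr and Cd109. Map1b, a microtubule gene known from neurons, had 6048, 5702, 463 and 501 CPM in aorta, against 65.1, 54.7, 4.56 and 3.04 CPM in liver (6.79 ± 0.39, edgeR adjusted p 8.28e-08). Nupr1, a stress-induced nuclear protein gene, had 1105, 864, 649 and 1028 CPM in aorta, against 9.77, 6.74, 7.34 and 12.2 CPM in liver (6.66 ± 0.40). Ptx3, a pentraxin of local inflammation, had 396, 496, 269 and 236 CPM in aorta, against 2.79, 9.02, 1.98 and 1.69 CPM in liver (6.71 ± 0.40). Susd5 had 261, 310.3, 159.7 and 54.6 CPM in aorta, against 0.279, 0.207, 0.198 and 0.169 CPM in liver (9.81 ± 0.59). The 12 of largest fitted difference among the 1198 had no count in liver, so that their fitted size is no bound and gives no order against other genes: Mylk4, 2210407C18Rik, Unc5c, Pthlh, Ctnna3, Arsj, Gxylt2, Mall, Adig, Nmrk2, Foxl1 and Crispld1. Mylk4, a myosin light chain kinase relative, had 40.4, 41.8, 10.7 and 5.45 CPM in aorta, at least 179.9-fold higher, and Pthlh, parathyroid hormone-related protein, a known relaxant of vessels, 12.3, 11.2, 27.4 and 21.3 CPM in aorta, at least 158-fold. Foxl1, a factor gene of mesenchyme, was the most even of those given, with 9.87, 10.9, 12.9 and 12.2 CPM in aorta, at least 95.6-fold.

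Among the 1452 genes that met the same conditions and were called lower in aorta, those with the 12 smallest p included BC089597, Pklr, Slc17a3, Abcc6, Asgr2, Cyp2d26, Agt, Tm4sf4, 1810019D21Rik and Hsd17b2. Asgr2, a subunit of the asialoglycoprotein receptor that clears plasma proteins, had 0.176, 0.149, 0.244 and 0.163 CPM in aorta, against 87.4, 125, 301 and 234 CPM in liver (−9.92 ± 0.44, edgeR adjusted p 4.68e-08). The 12 largest fitted differences among the 1452 were those of Hsd17b6, Uroc1, Cyp3a25, Amdhd1, Akr1d1, Cyp7a1, Sult1d1, 5830473C10Rik, Dpys, Sult3a1, Cyp3a44 and Slc17a4. Hsd17b6, of steroid metabolism, had 1 count over the aorta libraries and 4264 over the liver libraries, a ratio of liver over aorta of 11046 (95% exact counting interval 1981 to 436396), and Uroc1, of histidine breakdown, a ratio of 9694 (95% exact counting interval 1739 to 382985). Akr1d1, of bile acid synthesis, had 0, 0.0498, 0 and 0.0813 CPM in aorta, against 658, 536, 15.3 and 21.3 CPM in liver, its liver o libraries far above its liver n libraries.

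The tissue difference was next measured in o and in n libraries apart, which share no library. Of 11811 genes tested in both, 1847 were higher in aorta in both, which is 74.6% of those higher in o and 63.2% of those higher in n. For genes lower in aorta the number was 1875, or 67.8% of those of o and 68.5% of those of n. Across these 11811 genes, which are not independent of each other, the log2 differences of o and n had a Pearson r of 0.892. In 14 genes the calls were opposite. Trim44, a gene of the TRIM family, had 512, 345, 32 and 24.5 CPM in aorta, against 2503, 1143, 9.91 and 10.5 CPM in liver, lower in o (log2 −2.01) and higher in n (1.37), and Pttg1ip had 64.5, 55.9, 168 and 103 CPM in aorta, against 213, 160.3, 35.3 and 37.7 CPM in liver (−1.63 in o and 1.80 in n). Inhbb, an activin subunit gene, was at −2.38 in o and 2.91 in n. Abhd2, Adipor2, Atp8a1, Gcc1, Kcnk13, Shb, Slc39a14 and Tbc1d10b shared this order. Mrps14, Serf1 and Tsr3 had the reverse, Serf1 with 4.94, 4.09, 1.87 and 3.49 CPM in aorta, against 0.838, 1.04, 9.52 and 10.3 CPM in liver. A test of the interaction of tissue and suffix letter passed for no gene, with a smallest adjusted p of 0.0726 (edgeR, Benjamini-Hochberg), while 2524 genes had an unadjusted p under 0.05. DESeq2 called 263 genes with a higher and 254 with a lower difference in n for the same interaction, and without aorta n2 edgeR called 1224 and 601.

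**Figure D4:**
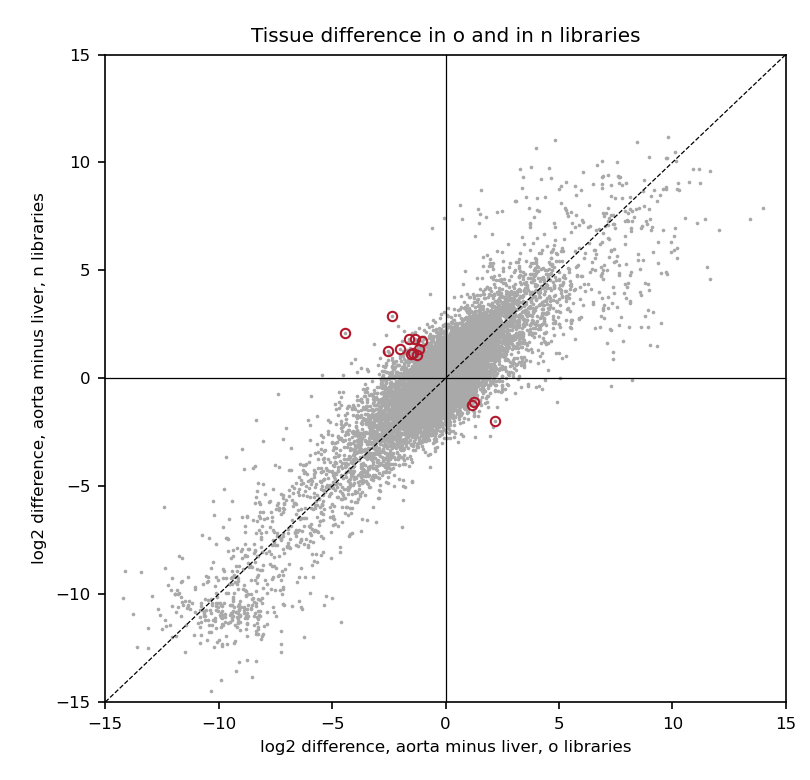
Log2 difference (aorta minus liver) of 11811 genes in the o libraries (horizontal) and in the n libraries (vertical), 1 point a gene. Most points lie along the diagonal, and the 14 marked genes, called in opposite directions, lie in the upper left and lower right.

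By the smallest interaction p, the 10 genes with the larger difference in n were Trim44, Pttg1ip, Myo5b, Procr, Tbc1d10b, Pex14, Gm4841, Trim26, Myo6 and Kcnk13, and the 10 with the smaller were Fam25c, Cnn1, Tiam2, Nudt6, Ttc36, Igf1, Sult5a1, Atp5j, Acot13 and BC024386. Procr, Cnn1 and Igf1, described above, kept their direction in both: Procr was at 1.83 in o and 4.98 in n, Cnn1 at 10.22 and 5.59, and Igf1 at −2.97 and −5.53. None of these genes passed the interaction test after adjustment.

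In the E2 libraries, none of which enter the vehicle comparison, 3433 (26.3%) of 13061 genes tested were higher in aorta and 2869 (22.0%) lower. Of the 3003 genes higher in vehicle aorta that could be tested there 2700 (89.9%) were higher again, and of the 2913 lower ones 2417 (83.0%) were lower again. None was called in the opposite direction. Read the other way, 82.5% of the genes higher and 88.1% of those lower with E2 had been called with vehicle. Acta2 differed by 6.00 ± 0.52, Eln by 4.66 ± 0.37, Adipoq by 9.51 ± 0.61, Il6 by 5.09 ± 0.79, Car9 by 5.35 ± 0.42, Alb by −10.80 ± 1.03 and Cps1 by −11.86 ± 0.76 in the E2 libraries (log2, SE). Whether a vehicle and an E2 library share an animal is not known from the labels.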

How the data were processed

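Of 16 RNA sequencing libraries, the 8 with vehicle make the main comparison. The authors deposited 1 table of read counts, handled under the unit of estimated counts since a percentage closes each column; gene values are all whole. Per the submitters' processing notes the reads were aligned with Bowtie 0.12.5 to build mm9, HTSeq 0.4.5p7 did the counting, and edgeR 3.4.2 is also listed. For the annotation, the strand setting and the rule for shared reads, the sources give nothing. Reads of a gene can therefore not be separated from those of a partner on the other strand or overlapping it. Reads in genes made up 25.9% to 46.6% of a vehicle library. The lines that name no gene (no feature 52.9% to 74.1%, ambiguous 0.0452% to 0.523%) were left out.

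Columns were assigned to groups by the tissue and treatment in their names. Genes were kept by edgeR's filterByExpr (10 counts in a library of median size, 15 in total), scaled by TMM and tested by the quasi-likelihood method of edgeR 4.0.16 (R 4.3.3), with a batch of levels o1, o2 and n as covariate. A gene was called at a Benjamini-Hochberg adjusted p under 0.05 and a log2 difference over 1 in size. The SE is the log2 difference divided by the square root of F. DESeq2 1.42.0, voom of limma 3.58.1, other scalings, no filter, other covariates and each library left out were the alternatives. Where a tissue had no count, the floor was 3 counts over its 4 libraries. Intervals of ratios from 1 to 3 counts are 95% exact counting intervals, and intervals and floors cover counting error only. Replicates were compared, and none agreed within sampling noise.

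Libraries of 1 suffix deviated together: the correlation of deviations from the group mean was 0.77 for o1, 0.80 for o2, 0.68 for n1 and 0.83 for n2. This follows the letter, which is in the column names and not in the labels. Within a letter the correlation was 0.17 for o and −0.09 for n.

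Named genes are, in each direction, the 12 of smallest p and the 12 of largest difference among called genes with no overlap and a mean of at least 10 CPM, up to 8 called members of a list, members called against their list, members that mark a cell type or step, and 10 genes each way for the interaction; others are said to be chosen on their values. The members, the lists and this rule were chosen with earlier results of these data known. In simulated data for this comparison with 12486 genes, the test recovered 72 of 94 genes changed 4-fold and 2 of 97 changed 2-fold. There were 7 false calls over all genes. Recovery was judged there by an adjusted p under 0.05 and the right sign, with no size threshold, and most 2-fold changes were missed. In the real comparison 6453 of 12607 genes passed that adjusted p. The adjustment is stricter where few genes change, so the recovery in simulated data is not that of this comparison. Promoters are RefSeq sequences of GRCm38.p6, matched by symbol. Some genes of these lists are not reported here.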

Additional observations from a re-analysis of the deposited data

Results flagged for a closer look

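In 336 groups of 4 libraries (levels of the genes given by library, list sums and total counts), the highest or lowest library was set against the rest, and it counted as apart where its gap to the nearest exceeded 0.829 of the range. This held in 39 groups (11.6%). The limit is set for about 1 in 20 among 4 values of 1 normal spread, which these levels are not. The o and n libraries deviated by letter, and some levels rest on few counts. Some genes were picked after their values were seen, so the share cannot be set against chance. Aorta o1 was apart at the top for 6 quantities, with Alb at 321 CPM, Fgb at 29.4 CPM, Cyp3a11 at 3.88 CPM, Abcb11 at 1.59 CPM, Cyp7a1 at 0.176 CPM and Myh6 at 104 CPM. Aorta o2 was highest for Tbx20 at 3.19 CPM and for Hnf4a at 0.149 CPM, which is 3 counts. Aorta n1 was highest for Tg at 649 CPM and Slc5a5 at 1.22 CPM, genes known from the thyroid, and for Vegfa at 389 CPM, Col4a6 at 122 CPM, F3 at 111 CPM and Wif1 at 7.73 CPM. Aorta n2 was highest for the summed lymphocyte list at 1121 CPM, the summed neutrophil and mast cell list at 117 CPM, Glycam1 at 484 CPM, H2-Ea-ps at 96.3 CPM, Cd22 at 24.9 CPM and Mcpt4 at 19.7 CPM, and lowest for Agtr1a at 1.46 CPM.

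Liver o1 was highest for Nr1d1 at 433 CPM, Dbh at 1.68 CPM and Snap25 at 0.279 CPM. Liver o2 had the most counts, 13078032, was highest for Fosl1 at 58.9 CPM, Ptx3 at 9.02 CPM, Mfap5 at 1.66 CPM and Ryr2 at 1.45 CPM, and was lowest for Hoxa3 at 0.415 CPM. Liver n1 was highest for Comp at 0.198 CPM, which is 1 count. Liver n2 was highest for Osr1 at 1.52 CPM, Sost and Chst3 at 1.35 CPM each, Dio2 and Gkn3 at 0.846 CPM each, Acan at 0.507 CPM, F13a1 at 0.338 CPM and H2-Ea-ps at 0.169 CPM.

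In 14 genes the tissue difference was called in opposite directions in the n and the o libraries. The log2 difference in n libraries was 1.75 for Abhd2, 1.35 for Adipor2, 1.82 for Atp8a1, 1.12 for Gcc1, 2.91 for Inhbb, 2.11 for Kcnk13, 1.80 for Pttg1ip, 1.10 for Shb, 1.17 for Slc39a14, 1.25 for Tbc1d10b and 1.37 for Trim44, each below −1 in the o libraries. It was −1.22 for Mrps14, −2.0 for Serf1 and −1.11 for Tsr3, each above 1 in the o libraries. The test of the interaction itself (edgeR, Benjamini-Hochberg adjusted) passed for none of the 14, with adjusted p between 0.0726 and 0.116.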

How the results depend on the processing

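The vehicle comparison called 3032 genes higher and 2954 lower. Higher calls numbered 4661 on library totals, 1805 with glmTreat, 1450 at a log2 difference over 2 in size and 1072 with no batch term, and lower calls 1754 over 2 in size and 1375 with no batch term. DESeq2 gave 3287 and 3082, voom 2979 and 3235, RLE scaling 3167 and 2926, upper quartile scaling 3093 and 2931, no filter 3921 and 3478, the o libraries alone 2607 and 2916 and the n libraries alone 3146 and 3182. With 1 library left out higher calls ran from 2726 to 3355 and lower calls from 2546 to 2996. The replicate block, with the 4 suffixes as its levels, gave 2904 and 2940, and of the genes named it ended the calls of Fmo2, Scd2, Tbx2, Tbx20 and Abcc9 and no other. The E2 counts, 3433 and 2869, became 3397 and 3093 with RLE, 3669 and 3362 with DESeq2 and 3138 and 2568 with the replicate block. The interaction of tissue and letter, 0 in either direction, became 263 larger and 254 smaller in n with DESeq2 and 386 and 263 with no filter. With 1 library left out it ran from 0 to 1224 larger (87 without aorta n1, 1224 without aorta n2) and from 0 to 601 smaller (15 and 601 without the same 2 libraries). The cause was not tested.

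Of 403 named genes tested 330 were called. Calls ended for 1 gene under RLE scaling (Ednra), 0 under upper quartile scaling, 6 without Rn45s, 23 on library totals, 1 with DESeq2 (Rn45s) and 4 with voom, and 13 genes gained a call on library totals, among them Srf, Mkl2, Des, Cdh5, Vwf, Fn1, Notch3 and Egr1. Left out in turn, 1 library ended 39 calls. For 9 genes a single library did so: aorta n1 for Gata6, aorta n2 for Acot13, aorta o2 for Igfbp7 and Rn45s, liver o1 for Chad, and liver n2 for Gja5, Hoxb2, Il1a and Nos3. For 10 genes 2 or 3 libraries did: aorta n2 or liver o2 for Bmp2, aorta o2 or liver o2 for Pygb, aorta n1, liver n1 or liver n2 for Atp8b1, aorta o1, liver o1 or liver o2 for Cpt1a, Hspa1b, Ptgs1 and Trim26, aorta o1, liver n2 or liver o1 for S100a9, aorta n2, aorta o1 or liver o1 for Efemp1, and aorta n2, aorta o2 or liver n1 for Igfbp6. For the other 20, 4 or more libraries did: Abcc4, Abcc9, B2m, Cd8a, Ednra, Esr1, Fmo2, Hes1, Hist1h1c, Hist1h2bc, Hoxa4, Loxl4, Pex14, Pgr, Plk1, Robo1, Scd2, Tbx2, Tbx20 and Timd4, with adjusted p up to 0.296 (Fmo2).

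Of named genes past the test in all libraries or under an alternative, the log2 difference took the other sign in the 14 called in opposite directions by letter and in no other, while values that passed in neither changed sign in further genes. With the o libraries alone they were −1.06 for Abhd2 (0.41 in all libraries), −1.18 for Adipor2 (0.15), −1.36 for Atp8a1 (0.06), −2.38 for Inhbb (0.68), 1.19 for Mrps14 (−0.01), −1.63 for Pttg1ip (0.13), 2.2 for Serf1 (−0.07) and −1.27 for Shb (0.03). With the n libraries alone they were 1.12 for Gcc1 (−0.12), 2.11 for Kcnk13 (−0.85), 1.17 for Slc39a14 (−0.08), 1.25 for Tbc1d10b (−0.53), 1.37 for Trim44 (−0.32) and −1.11 for Tsr3 (0.12). List medians lay above 0 in 24 of 47 lists. The sign turned for macrophage genes on library totals (0.19 against −0.37), for glucose metabolism on library totals (0.24 against −0.31), for neutrophil and mast cell genes without aorta n1 (−0.14 against 0.33), and for lymphocyte genes (−0.14) on library totals (0.43), without Rn45s (0.0041), with no batch term (0.34), with the n libraries alone (0.35) and without aorta n1 (0.29), aorta o1 (0.45), liver n2 (0.22) or liver o1 (0.44). Where a lone sample was left in an arm of 1 letter, it was assumed to vary like the others. Genes that did not pass are not shown to be equal. In simulated data at the depth of the vehicle comparison 72 of 94 genes changed 4-fold and 2 of 97 changed 2-fold were recovered. Far fewer genes were changed there than passed in the real comparison, so this recovery does not carry over to it.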

Other observations

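Pericyte genes, of the cells that wrap small vessels and share markers with smooth muscle, rose in 5 of 8 tested cases and fell in 0, against 24.1% and 23.4% of all tested genes. Cspg4, the gene of the NG2 proteoglycan, had 167, 149, 597 and 409 CPM in aorta, against 0, 3.32, 1.98 and 5.07 CPM in liver, with every aorta library above every liver library and a log2 difference of 6.93 ± 0.62, edgeR adjusted p 2.27e-06. Rgs5, which dampens signals of G protein-coupled receptors, differed by 3.28 ± 0.44, the melanoma adhesion gene Mcam by 2.86 ± 0.31 and Pdgfrb, the gene of the growth factor receptor that recruits mural cells, by 2.27 ± 0.36. Of the subunits of the ATP-sensitive potassium channel, Abcc9 rose (1.02 ± 0.36, but 0.91 and not past the threshold with the suffix as a block) and Kcnj8 did not pass (−0.15 ± 0.30). Of 5 leukocyte adhesion genes 3 rose. Selp, P-selectin, had 278, 79.4, 221 and 100.1 CPM in aorta, against 47.2, 40.5, 4.76 and 12.5 CPM in liver (2.99 ± 0.60) and Vcam1 differed by 2.52 ± 0.46, both with every aorta library above every liver library, while E-selectin, Sele, did not pass (0.18 ± 0.55). Among the 15 genes of heat shock and oxidative stress 7 rose and 2 fell. Srxn1, which repairs oxidised peroxiredoxins, differed by 2.91 ± 0.58, and Nqo1, a quinone reductase gene of the same response, did not pass (−0.12 ± 0.46).

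Some genes that missed the filter on low counts were high in part of the libraries and are given as values, chosen after they were seen. Beside Tg, the iodide transporter gene Slc5a5 had 0, 0, 1.22 and 0.0813 CPM in aorta, highest in n1 as Tg was. The factor genes Pax8 and Nkx2-1 stayed under 1 CPM in every library. Beside Glycam1, H2-Ea-ps had 0, 0.149, 0.447 and 96.3 CPM in aorta, highest in n2 as Glycam1 was. The B cell gene Cd22 was tested and did not pass, with 0.176, 3.19, 0.895 and 24.9 CPM in aorta, against 4.75, 2.49, 4.76 and 6.26 CPM in liver. Phex, an endopeptidase gene known from bone, had 21.2, 36.3, 3.33 and 0.163 CPM in aorta and no count in liver, the o libraries being the higher ones. Chst3, which sulfates chondroitin, showed the other order with 2.47, 1.25, 61.9 and 33.5 CPM in aorta, as did Leap2, an antimicrobial peptide gene of liver, with 1.40, 5.50, 187 and 253 CPM in liver. Snap25, a gene of synaptic vesicle release, had 49.9, 14.4, 3.25 and 0.488 CPM in aorta. Fabp3, the fatty acid binding protein gene of heart and brown fat, had 320 counts over the aorta libraries and 0 over the liver libraries, and Inhbe, an activin subunit gene of liver, had 0 counts over the aorta libraries and 308 over the liver libraries. TATAAA was found on either strand in 10.3% of the 29 smooth muscle promoters (3 genes) and in 13.8% of the 29 plasma protein promoters (4 genes). It was found in 13% of all 27025 and in 6.77% of the genes tested.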
